A study of Mus musculus with 8 samples.

Results

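The fibroblast growth factor (FGF) pathway was examined through 34 genes among the 20701 gene symbols measured in pharyngeal mesoderm and hearts of mouse embryos. The genes were taken by name from a list that was drawn up with earlier results of these data known, and comprised 12 secreted ligands, 4 FGF homologous factors, 5 receptors, 2 docking adaptors, 8 feedback inhibitors and 3 ETS transcription factors. All 34 symbols were found. For each of them the transcript with the highest summed read count was used.

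FGFs are secreted proteins that bind receptor tyrosine kinases together with heparan sulphate. Activated receptors phosphorylate docking adaptors that start the RAS-ERK cascade, and ERK signalling in turn induces ETS factors of the Etv1/4/5 group as well as Sprouty proteins and the phosphatase Dusp6, which restrain the same cascade. In the early embryo Fgf8 and Fgf10 are made in the second heart field and the pharyngeal region, where FGF signalling is needed for growth of the outflow tract.

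RNA-Seq was performed on single C57BL/6 embryos at E8.75 (6 somites), 4 of them wild-type and 4 Isl1-/-, and each library held the dissected pharyngeal mesoderm and heart of 1 embryo. Isl1 is a LIM-homeodomain factor that marks progenitors of the second heart field. The label gives a whole-embryo genotype with no tissue-specific Cre, and the allele is not described further in the sources used here. Knockout embryo 2 was labelled total RNA, whereas polyA RNA was stated for the other 7. Libraries held 18916452 to 26153039 reads over 1 transcript per gene, and levels are given as counts per 1000000 reads after TMM scaling (CPM).

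The genotype labels and the tissue were checked first. In wild-type embryos 1 to 4 Isl1 had 9.72, 9.76, 26.9 and 23.3 CPM, whereas knockout embryos 1 to 4 had 2.32, 2.16, 1.78 and 2.40 CPM, so the groups did not overlap. Throughout, values of a genotype are listed in the order of embryos 1 to 4. Across the genome 15 genes were higher and 122 were lower in the knockout among 14075 genes tested (edgeR quasi-likelihood test, FDR under 0.05, the Benjamini-Hochberg adjusted p). Of 10 cardiomyocyte markers 8 were lower past this threshold, and their summed level was 3063 to 4559 CPM in wild-type and 1650 to 2482 CPM in knockout embryos. Of 10 markers of the second heart field and pharyngeal mesoderm 3 were lower, Isl1, Nkx2-5 and Mef2c. Fewer cells of a type and less RNA per cell cannot be told apart in such tissue pieces.

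Wild-type embryo 3 stood apart from the other wild-type embryos. Its cardiomyocyte marker sum, 3063 CPM, was the lowest of the wild-type embryos and its erythroid marker sum, 382 CPM, the lowest of all 8. Its sums of second heart field and pharyngeal mesoderm markers, 326 CPM, and of endothelial markers, 461 CPM, were the highest of all 8. Its highest sums among wild-type embryos included pharyngeal endoderm at 450 CPM and yolk sac endoderm at 4676 CPM. Wild-type embryo 3 was also the wild-type embryo with the highest level for 23 of the 33 FGF genes tested, while this was so for 35.2% of all genes tested. These 23 included all 8 feedback inhibitors, all 3 ETS factors, both docking adaptors, 7 secreted ligands and 3 receptors, but none of the 4 FGF homologous factors. For 15 of the 33 FGF genes it held the highest level of all 8 embryos, against 17.9% of all genes tested. The main comparisons are therefore given with and without this embryo.

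**Figure D1:**
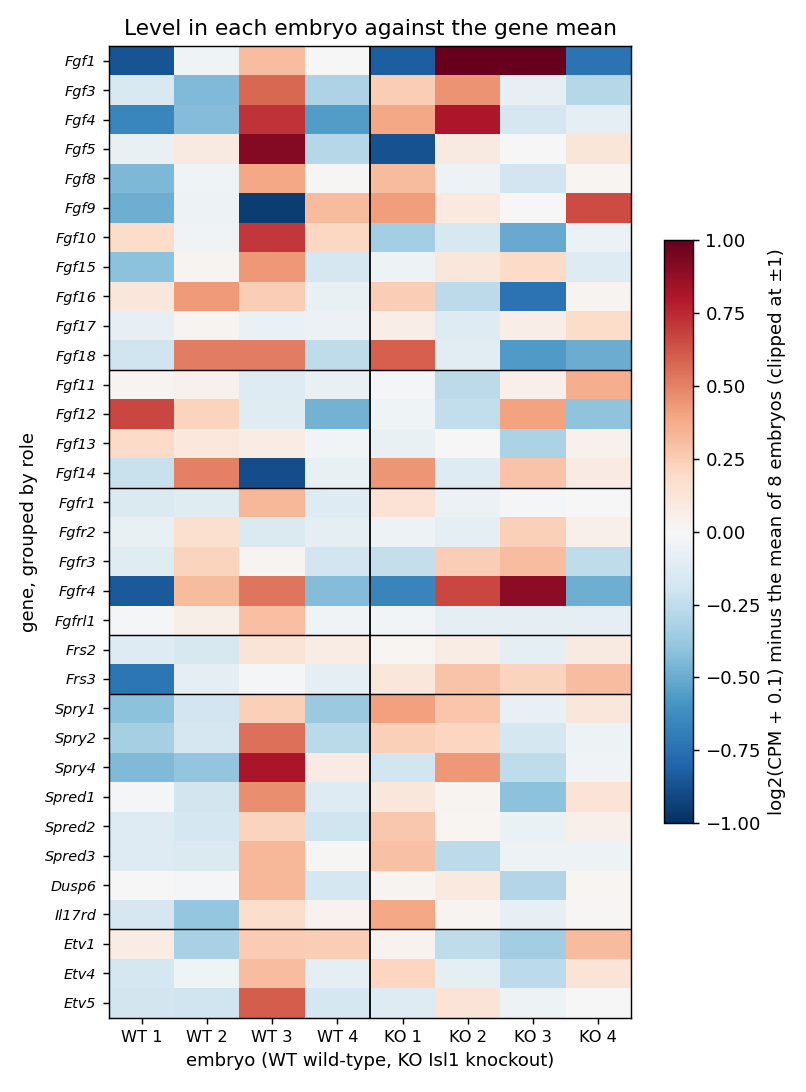
Level of 33 FGF pathway genes in each embryo, as log2(CPM + 0.1) minus the mean of the 8 embryos for that gene, with red above and blue below the mean and black lines between roles. The column of wild-type embryo 3 is red for all 8 feedback inhibitors and all 3 ETS factors, and Fgf10 is blue and Frs3 red in all 4 knockout columns.

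None of the 33 FGF genes that could be tested differed between genotypes at an FDR of 0.05 in edgeR, where 0.973% of all genes did. At an unadjusted p under 0.05 there were 3, Fgf10, Frs3 and Spry1, against 17.4% of all genes. Fgf10 was lower in the knockout, and Frs3 and Spry1 were higher. DESeq2 called 1 FGF gene, Fgf10, at the same FDR, against 5.24% of all genes, and limma called 0, against 0.845%. At an unadjusted p under 0.05 there were 3 in each, against 14.4% and 17.8% of all genes. No FGF gene had both a fold change above 1.5 and an unadjusted p under 0.05, the limits used in the study, which 3.93% of all genes passed. Of the 33 estimates 19 lay above 0 and 14 below, where 51.2% of all genes lay above 0. Their median log2 fold change was 0.032 where the median over all genes was 0.0063.

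The precision differed between members. For 19 of the 33 the 95% interval of the log2 fold change lay within 0.58 of 0 in either direction, so a 1.5-fold difference was outside the interval. The same held for 68.5% of all genes tested. These 19 were Fgf8, Fgf15, Fgf17, Fgf11, Fgf13, Fgfr1, Fgfr2, Fgfr3, Fgfrl1, Frs2, Spry2, Spred1, Spred2, Spred3, Dusp6, Il17rd, Etv1, Etv4 and Etv5. For the remaining 14 the interval reached beyond 0.58 in at least 1 direction.

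**Figure D2:**
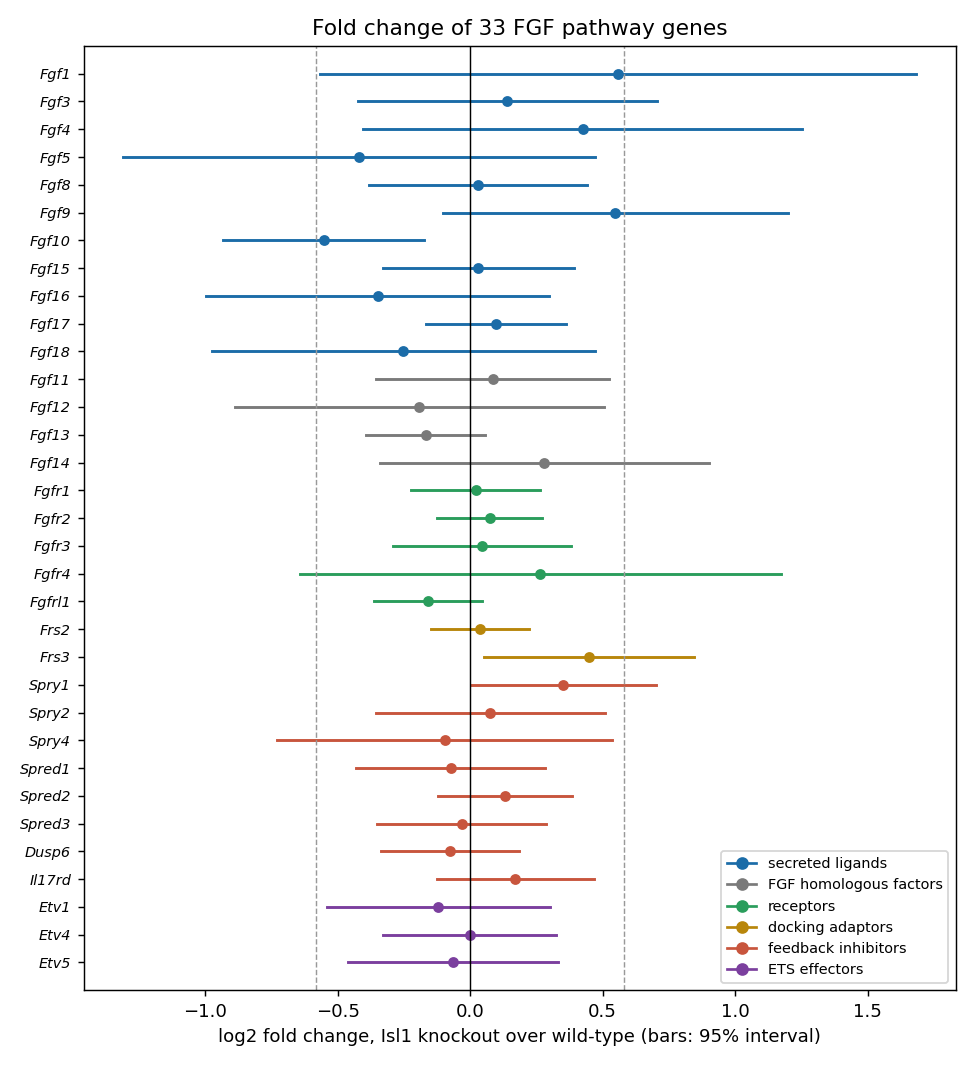
Log2 fold change of 33 FGF pathway genes, knockout over wild-type, from edgeR, with dots for estimates and bars for 95% intervals, coloured by role. Dashed lines mark 0.58 in both directions. The intervals of Fgf10, Frs3 and Spry1 lie to 1 side of 0, and the widest belong to Fgf1, Fgfr4 and Fgf5.

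Levels were compared between genes on the scale of reads per kilobase of transcript and 1000000 reads (RPKM) in wild-type embryos. The phosphatase Dusp6 was the most abundant of the 34 genes at 37.0 ± 5.65 RPKM (SD, n = 4), followed by the receptor Fgfr1 at 34.8 ± 6.02 RPKM and the ligand Fgf15 at 29.8 ± 7.56 RPKM. These neighbours did not differ beyond their spread. Spred1, a membrane-bound inhibitor of RAS-ERK signalling, had 26.8 ± 5.97 RPKM and Fgfr2 had 22.9 ± 2.18 RPKM. Among secreted ligands the order after Fgf15 was Fgf8 at 7.38 ± 1.75 RPKM, Fgf3 at 4.35 ± 1.55 RPKM, Fgf17 at 3.59 ± 0.124 RPKM and Fgf10 at 3.56 ± 0.831 RPKM. Fgf17 and Fgf10 could not be ranked against each other. The other 7 ligands were at 1.38 RPKM or less, with Fgf2 last at 0.0924 ± 0.0670 RPKM.

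**Figure D3:**
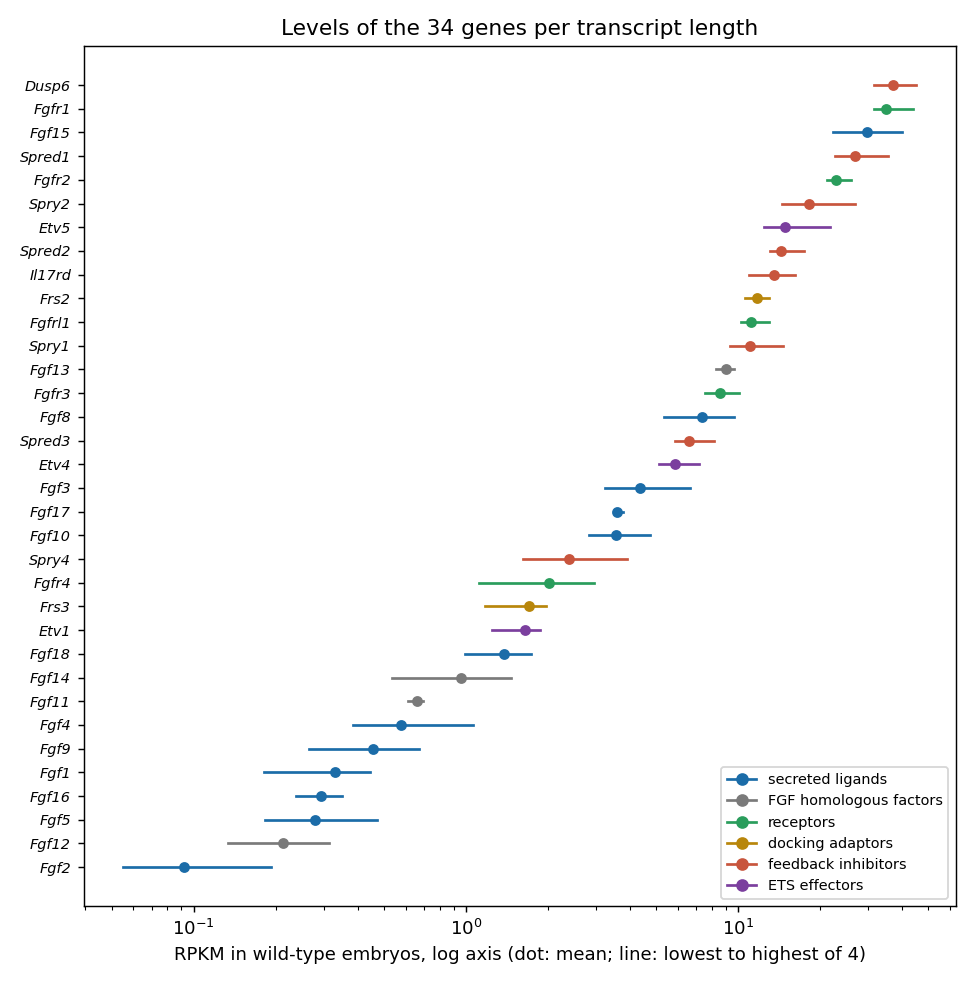
RPKM of the 34 genes in wild-type embryos on a log axis, ordered by the mean, with dots for the mean and lines from the lowest to the highest of 4 embryos. Feedback inhibitors and receptors fill most of the upper places, with Dusp6 at 37.0 and Fgfr1 at 34.8 RPKM, and the lowest 10 places are held by 7 secreted ligands and 3 FGF homologous factors.

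Among the secreted ligands Fgf10, which drives outgrowth of lung and limb buds and is made by second heart field cells, showed the lowest p-value (NM_008002, chromosome 13, 119458598 to 119580922, plus strand, mm9). Wild-type embryos had 15.1, 12.9, 21.7 and 15.3 CPM and knockout embryos 10.5, 11.9, 9.31 and 12.7 CPM, from 178 to 516 reads. Every knockout embryo was below every wild-type embryo, although wild-type embryo 2 at 12.9 and knockout embryo 4 at 12.7 CPM were close. The log2 fold change was -0.55 (SE 0.17, 95% interval -0.93 to -0.17), or 68.2% of the wild-type level, with an edgeR FDR of 0.148 and an exact two-sided permutation p of 0.0286, the smallest that 4 against 4 embryos allow. Over the alternatives run the adjusted p of Fgf10 ranged from 0.0499, in DESeq2, to 0.377. Without wild-type embryo 3 its log2 fold change was -0.38 with an edgeR FDR of 0.130.

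Fgf8, a ligand of the pharyngeal ectoderm and endoderm and of the second heart field, was at 6.38, 8.51, 11.5 and 8.82 CPM in wild-type and 10.9, 8.46, 7.63 and 8.86 CPM in knockout embryos. The groups overlapped throughout, and the log2 fold change was 0.03 (95% interval -0.38 to 0.44, edgeR FDR 0.947). In a separate fit over all transcripts of the table, which is scaled differently, the 4 Fgf8 transcripts gave estimates of 0.03 to 0.04. Fgf3, made in pharyngeal endoderm and hindbrain, was at 4.72, 3.86, 7.88 and 4.22 CPM in wild-type and 6.26, 7.21, 4.97 and 4.31 CPM in knockout embryos. Its log2 fold change was 0.14 (95% interval -0.42 to 0.70, edgeR FDR 0.812), and the highest value belonged to wild-type embryo 3. Without that embryo it was 0.42 with an edgeR FDR of 0.241, the lowest of the alternatives run, of which the highest was 0.988.

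Fgf15, a ligand of the neural tube and pharynx at this stage and later of the intestine, was the most abundant ligand. It was at 40.3, 54.6, 72.1 and 47.6 CPM in wild-type embryos and at 51.5, 58, 61.0 and 48.8 CPM in knockout embryos. The knockout values lay inside the wild-type range, with a log2 fold change of 0.03 (95% interval -0.33 to 0.39, edgeR FDR 0.936). Fgf17, a close relative of Fgf8, varied least among ligands, from 5.88 to 6.34 CPM in wild-type and from 5.68 to 7.10 CPM in knockout embryos, with a log2 fold change of 0.10 (95% interval -0.17 to 0.36).

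The scarce ligands were measured with wide intervals. Fgf9 had 1.10 to 2.78 CPM in wild-type and 2.20 to 3.52 CPM in knockout embryos, a log2 fold change of 0.55 with an unadjusted edgeR p of 0.0897. Fgf4 was at 1.17, 1.37, 3.20 and 1.25 CPM in wild-type and 2.51, 3.40, 1.67 and 1.76 CPM in knockout embryos. Its log2 fold change was 0.42 with all embryos and 0.89 without wild-type embryo 3, with edgeR FDRs of 0.593 and 0.109. The remaining fitted ligands Fgf1, Fgf5, Fgf16 and Fgf18 had log2 fold changes of 0.56, -0.42, -0.35 and -0.25, all with intervals that held 0. Fgf2 was not fitted, since it had 0 to 3 reads per library, at or under the 3 reads taken as the limit of detection.

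The 4 FGF homologous factors, intracellular relatives that bind voltage-gated sodium channels instead of FGF receptors, had a median log2 fold change of -0.041. Fgf13 was the most abundant of them, from 20.6 to 24.0 CPM in wild-type and from 16.9 to 21.6 CPM in knockout embryos, with a log2 fold change of -0.17 (95% interval -0.39 to 0.06). Fgf11, Fgf12 and Fgf14 were at 4.70 CPM or less in every embryo, with log2 fold changes of 0.08, -0.19 and 0.28.

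**Figure D4:**
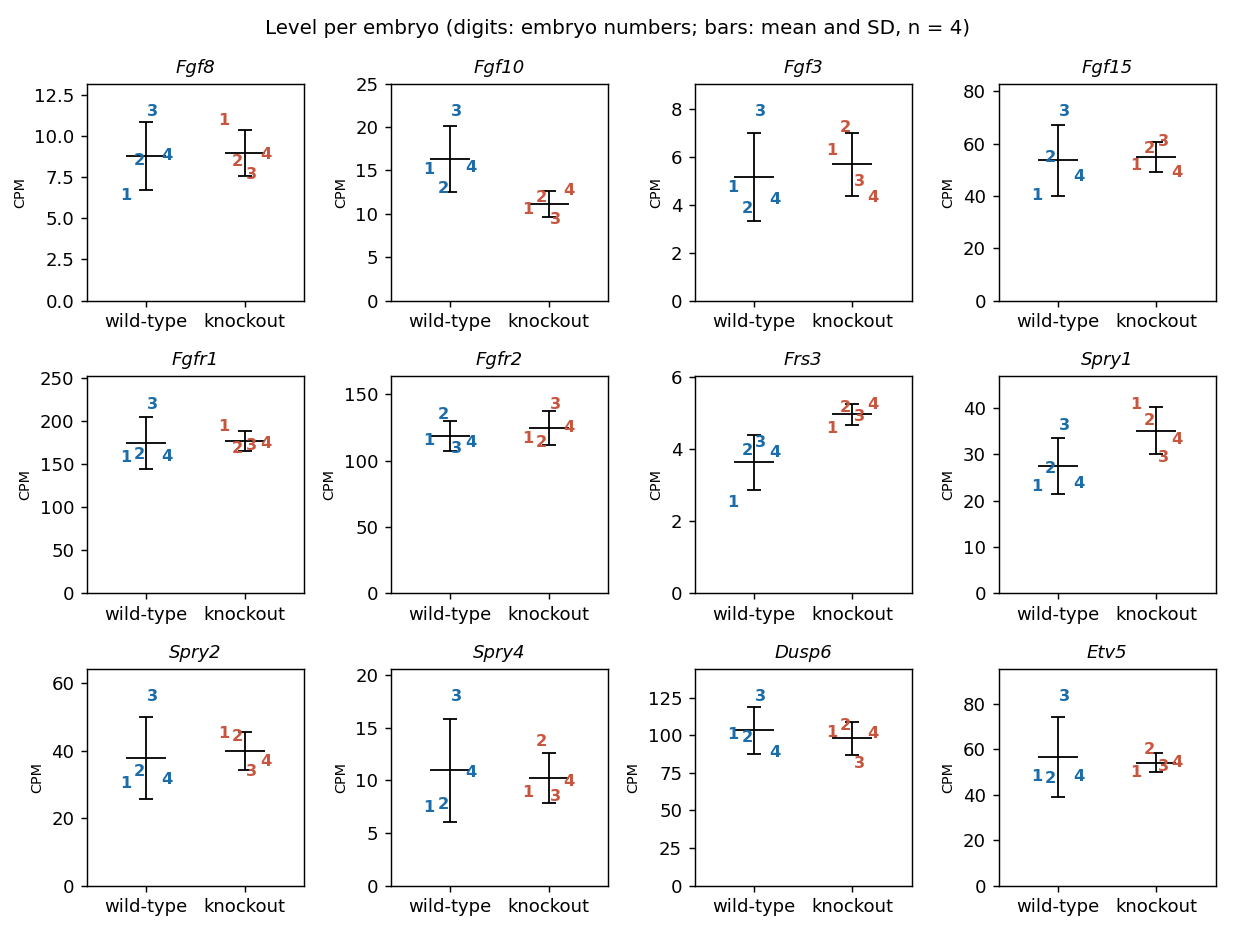
CPM of 12 FGF pathway genes in each embryo, with digits for the embryo numbers and bars for the mean and SD of 4 embryos per genotype. Knockout values of Fgf10 lie below, and those of Frs3 above, all wild-type values, and digit 3 is the uppermost wild-type value in 11 of the 12 panels, all but Fgfr2.

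Of the 5 receptors 0 passed an unadjusted p of 0.05 in edgeR, DESeq2 or limma, and 4 had a 95% interval within 0.58 of 0, all but Fgfr4. Fgfr1, the main receptor of mesoderm, was at 158, 161, 219.5 and 159 CPM in wild-type embryos and at 193, 168, 172 and 174 CPM in knockout embryos. Wild-type embryo 3 was far above the other wild-type embryos, which all lay below the knockout embryos. Over all 8 embryos the log2 fold change of Fgfr1 was 0.02 (95% interval -0.22 to 0.26, edgeR FDR 0.938), and without wild-type embryo 3 it was 0.15 with an FDR of 0.171. Fgfr2, the receptor of many epithelia and the main one for Fgf10, was at 115, 135, 110 and 114 CPM in wild-type and 117, 114, 142 and 125 CPM in knockout embryos. These ranges overlapped, with a log2 fold change of 0.07 (95% interval -0.12 to 0.27, edgeR FDR 0.708). In the separate fit over all transcripts the 3 Fgfr1 transcripts, the one used above included, gave estimates of 0.03 to 0.04 and the 3 Fgfr2 transcripts 0.08 to 0.09, from counts that transcripts of a gene share.

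Fgfr3 was at 32.0 to 42.6 CPM in wild-type and 30.7 to 45.3 CPM in knockout embryos, and the decoy receptor Fgfrl1, which lacks the kinase domain, at 27.2 to 34.4 and 26.0 to 27.4 CPM. Their log2 fold changes were 0.05 and -0.16. Fgfr4, known from endoderm and liver, varied most among receptors, at 3.51, 7.94, 9.23 and 4.68 CPM in wild-type and 3.98, 10.2, 11.9 and 4.50 CPM in knockout embryos. Both groups held a low and a high pair, and the log2 fold change of 0.27 had a 95% interval of -0.64 to 1.17. Without wild-type embryo 3 it was 0.50, with an edgeR FDR of 0.505.

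The embryos with high Fgfr4 were wild-type embryos 2 and 3 and knockout embryos 2 and 3. The same 4 embryos had the highest summed level of 10 markers of visceral and yolk sac endoderm (Afp, Ttr, Apoa1 and others), at 2717, 4676, 6786 and 4763 CPM, where the remaining 4 had 423 to 1493 CPM. The marker sums of pharyngeal endoderm and surface ectoderm were also higher in these embryos. Sums of pharyngeal endoderm markers were 391, 450, 452 and 435 CPM in the same 4 embryos, against 297 to 333 CPM. Those of surface ectoderm markers were 663, 527, 651 and 664 CPM, against 417 to 463 CPM. Most of the pharyngeal sum came from Cldn6, Cdh1 and Epcam, and most of the ectoderm sum from Krt8, Krt18 and Cdh1. Cdh1 is in both lists. Other markers of these lists, such as Trp63, Dlx3, Pax9 and Shh, did not follow these 4 embryos, so the sums do not show that the tissues as such did. Fgf1 was at 0.709, 1.33, 1.73 and 1.37 CPM in wild-type and 0.735, 3.15, 2.93 and 0.783 CPM in knockout embryos, again highest in knockout embryos 2 and 3. None of the 10 visceral and yolk sac endoderm markers differed between genotypes at an FDR of 0.05 in edgeR, DESeq2 or limma, and 0 did at an unadjusted p under 0.05. Their edgeR log2 fold changes were imprecise, all 10 above 0, from 0.28 to 0.97 with SEs of 0.68 to 0.97. The absence of calls therefore does not show equal levels in the genotypes. The part of these tissues in the levels of Fgfr4 and Fgf1 was not tested.

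**Figure D5:**
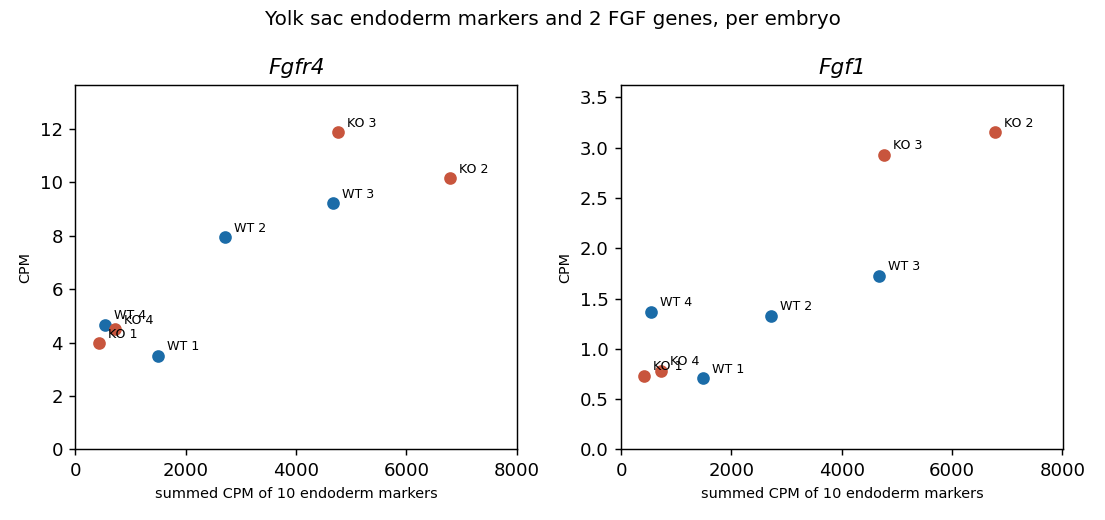
CPM of Fgfr4 and Fgf1 against the summed CPM of 10 visceral and yolk sac endoderm markers, 1 point per embryo, blue for wild-type (WT) and red for knockout (KO). The 4 embryos with marker sums of 2717 CPM and above have the 4 highest Fgfr4 levels, 7.94 to 11.9 CPM, and include both genotypes.

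The docking adaptors pass the signal from the receptors to GRB2 and SHP2. Frs3 (NM_144939, chromosome 17, 47825979 to 47841235, plus strand, mm9) was at 2.50, 3.95, 4.17 and 3.92 CPM in wild-type and at 4.56, 5.14, 4.91 and 5.24 CPM in knockout embryos, from 60 to 124 reads. All knockout embryos were higher than all wild-type embryos, and wild-type embryo 1 was the lowest. Its log2 fold change was 0.45 (SE 0.18, 95% interval 0.05 to 0.85, edgeR FDR 0.237), with the exact permutation p of 0.0286 that is the smallest possible here. Frs2, its more abundant relative, was at 60.0 to 73.5 CPM in wild-type and 62.8 to 71.2 CPM in knockout embryos, a log2 fold change of 0.04 (95% interval -0.15 to 0.22). Fgf10 and Frs3 were thus the 2 of 33 FGF genes whose groups did not overlap, against 10.3% of all genes tested. Their exact permutation p of 0.0286 follows from this separation and adds nothing to it.

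The feedback inhibitors report on pathway activity as well as limiting it. Spry1 (NM_011896, chromosome 3, 37538869 to 37543520, plus strand, mm9), a Sprouty protein that blocks RAS-ERK activation, was at 23.2, 27.0, 36.3 and 23.8 CPM in wild-type and at 40.8, 37.3, 29.3 and 33.3 CPM in knockout embryos. Wild-type embryo 3 lay among the knockout embryos, and the other wild-type embryos were below all of them. With all embryos the log2 fold change was 0.35 (SE 0.16, 95% interval 0.0031 to 0.70, edgeR FDR 0.284), and without wild-type embryo 3 it was 0.51 with an FDR of 0.0539. In the fit over all transcripts the 4 Spry1 transcripts gave estimates of 0.36 to 0.37.

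Spry2 was at 30.2, 33.8, 55.9 and 31.5 CPM in wild-type and at 44.9, 44.1, 33.8 and 36.7 CPM in knockout embryos. The highest value of all belonged to wild-type embryo 3, and the log2 fold change moved from 0.08 (95% interval -0.36 to 0.51, edgeR FDR 0.865) to 0.33 (FDR 0.128) without it. Spry4 was at 7.43, 7.67, 17.9 and 10.8 CPM in wild-type and 8.85, 13.7, 8.47 and 9.89 CPM in knockout embryos. Its estimate changed sign when that embryo was left out, from -0.10 (95% interval -0.73 to 0.54) to 0.25, with edgeR FDRs of 0.888 and 0.496.

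Dusp6, which dephosphorylates ERK, was at 100.3, 98.6, 126 and 88.4 CPM in wild-type and 102, 107, 81.6 and 101 CPM in knockout embryos. Genotypes overlapped, with a log2 fold change of -0.08 (95% interval -0.33 to 0.18, edgeR FDR 0.779). Il17rd, a membrane protein also called Sef that holds back FGF signalling, had a log2 fold change of 0.17 (95% interval -0.13 to 0.47). Spred1, Spred2 and Spred3 had -0.07, 0.13 and -0.03, none past an unadjusted p of 0.05. Over the 8 feedback inhibitors 4 estimates lay above 0 and 4 below, with a median of 0.022. Without wild-type embryo 3 all 8 lay above 0, as did 52.9% of all genes, with a median of 0.244 where the median of all genes was 0.017. That embryo held the highest wild-type level of all 8 inhibitors, so leaving it out raises these estimates by construction. Of the 8, 0 passed the FDR of 0.05 in this edgeR fit and 3 had an unadjusted p under 0.05, against 23.8% of all genes.

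The ETS factors are induced by ERK and are widely used as readouts of FGF activity. Etv4 was at 11.9, 13.0, 16.7 and 12.6 CPM in wild-type and 15.6, 12.6, 11.2 and 14.7 CPM in knockout embryos. The genotype means were 13.6 ± 2.14 and 13.5 ± 2.0 CPM (SD, n = 4 each), and the 95% interval of the log2 fold change was -0.33 to 0.32. Etv5 was at 47.7, 47.3, 82.9 and 48.1 CPM in wild-type and 49.6, 59.8, 52.3 and 54.3 CPM in knockout embryos. Wild-type embryo 3 was again above all others, while the other 3 wild-type embryos lay below all knockout embryos. The log2 fold change of Etv5 was -0.06 (95% interval -0.46 to 0.33, edgeR FDR 0.877) and 0.18 (FDR 0.205) without that embryo. Etv1 had 5.28 to 7.92 CPM in wild-type and 5.18 to 8.27 CPM in knockout embryos, a log2 fold change of -0.12.

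Without wild-type embryo 3, 490 genes passed the FDR of 0.05 in edgeR, 3.46% of 14179 tested, and again 0 FGF genes did. At an unadjusted p under 0.05 there were then 8 FGF genes, Fgf10, Fgf4, Fgfr1, Frs3, Spry1, Spry2, Spred2 and Etv5, of which Fgf10 was lower and the other 7 were higher in the knockout. For all genes this share was 23.8%. Wild-type embryo 3 held the highest wild-type level of each of the 8 FGF genes, so leaving it out raises their estimates. The count and the directions therefore depend on that choice of embryo. For Spry1, Spry2, Spry4, Etv5, Fgf4, Fgfr1 and Fgfr4 the adjusted p without this embryo was the lowest of all alternatives run, and the highest were 0.546, 0.997, 0.998, 0.963, 0.840, 0.966 and 0.985.

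Embryos also differed in Y-linked genes, whose summed level was 276 to 300 CPM in wild-type embryo 4 and knockout embryos 1, 3 and 4 and at most 0.083 CPM in the others. Y-linked expression was thus more frequent among knockout than among wild-type embryos, so it was partly confounded with genotype. With the mean level of the Y-linked genes as a covariate the log2 fold change of Fgf10 was -0.49 and that of Spry1 0.45. That of Fgf4 was 0.76 and that of Fgf9 0.30, and no FGF gene passed the FDR of 0.05 in this edgeR fit.

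The wider pathway was covered by 61 further genes, of which 53 were fitted. None passed the FDR of 0.05 in edgeR, while 12 had an unadjusted p under 0.05, where 17.4% of all genes did. DESeq2 called 3 of them, Dusp5, Egr1 and Ier2, against 5.24% of all genes, and limma called 0. Without wild-type embryo 3 edgeR called 5, the same 3 and Mapk3 and Hs6st2, against 3.46% of all genes. Among 17 genes that make or carry heparan sulphate 9 estimates were above 0 and 8 below, and among 6 fitted genes of the other FGF ligands and co-receptors 5 were above 0. Over all genes tested 51.2% of estimates were above 0. The widest differences were in the 10 fitted ERK phosphatases and immediate early genes.

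Egr1, an immediate early transcription factor, was at 257, 283, 6.07 and 31.7 CPM in wild-type and 5.10, 6.05, 22 and 6.27 CPM in knockout embryos. Fos, another one, was at 137, 271, 4.76 and 27.2 CPM in wild-type and 2.36, 2.07, 24.8 and 2.69 CPM in knockout embryos. Wild-type embryos 1 and 2 were far above the other 6 for both genes, and wild-type embryo 3 lay among the knockout embryos. The log2 fold changes of -3.89 and -3.82 therefore had SEs of 1.05 and 1.21 and edgeR FDRs of 0.112 and 0.158. Dusp5, a nuclear ERK phosphatase, was at 24.7, 30.0, 18.1 and 18.4 CPM in wild-type and 14.6, 14.5, 13.8 and 11.9 CPM in knockout embryos. Its groups did not overlap, with an estimated log2 fold change of -0.73 (SE 0.17, edgeR FDR 0.0772). Of the 10 genes 3 had groups apart, Dusp5, Ier2 and Dusp14, against 10.3% of all genes tested. Dusp14 was higher in the knockout, with a log2 fold change of 0.36 (SE 0.14, edgeR FDR 0.237). Over the 10 genes 4 estimates lay above 0 and 6 below. All genes named in this paragraph were singled out after their values were seen.

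Start regions were read from RefSeq for 26 of the 34 genes, as the 250 bases upstream of each annotated start (GRCm38.p6), 35 windows in all. Both strands were searched for CCGGAA, a site preferred by ETS factors, and for CTAATG, a site of the kind bound by Isl1, and for the shorter cores GGAA and TAAT that these contain. CCGGAA was found in 5 of the 35 windows, where 12.0% of 32851 windows of all genes held it, and CTAATG was found in 3, against 6.36%. GGAA was found in 32 of the 35, against 93.4% of all windows, and TAAT in 11, against 54.9%. The windows of Fgf10, the gene with the lowest p-value, and of Spry1 and its relative Spry2 are given 5′ to 3′ on the strand of the gene, with GGAA and its complement TTCC in capitals. None of these 3 windows held CCGGAA or the core TAAT, and they held GGAA 2, 1 and 3 times, which says nothing on sites elsewhere. They lie at chr13:118714449-118714698 (plus strand), chr3:37639697-37639946 (plus strand) and chr14:105896820-105897069 (minus strand).
Fgf10: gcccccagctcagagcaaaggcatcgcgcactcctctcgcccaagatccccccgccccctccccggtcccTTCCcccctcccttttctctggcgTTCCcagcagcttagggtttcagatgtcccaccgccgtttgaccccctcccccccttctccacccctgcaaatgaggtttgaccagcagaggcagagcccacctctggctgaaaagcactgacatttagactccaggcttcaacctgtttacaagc
Spry1: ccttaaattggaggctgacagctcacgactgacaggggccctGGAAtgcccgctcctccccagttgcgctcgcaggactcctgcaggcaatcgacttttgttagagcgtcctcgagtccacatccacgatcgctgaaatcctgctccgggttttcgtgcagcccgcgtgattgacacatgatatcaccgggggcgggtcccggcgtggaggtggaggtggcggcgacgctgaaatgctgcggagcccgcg
Spry2: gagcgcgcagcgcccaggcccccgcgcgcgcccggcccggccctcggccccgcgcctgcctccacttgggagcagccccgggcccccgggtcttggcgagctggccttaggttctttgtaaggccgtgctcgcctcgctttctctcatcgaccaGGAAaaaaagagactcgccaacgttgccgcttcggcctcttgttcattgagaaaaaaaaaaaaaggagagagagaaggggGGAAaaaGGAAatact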

How the data were processed

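RNA-Seq libraries were made by the authors from 100 ng of RNA per embryo, and reads were aligned to mm9 with STAR and counted over exons of RefSeq transcripts with HOMER without regard to strand. Each deposited count is the number of reads per transcript, without scaling. The authors computed RPKM with edgeR from these counts and the transcript lengths. RPKM on the TMM scale was computed here from the same counts and lengths for comparing levels between genes. It is relative to the reads over 1 transcript of each tested gene. The deposited RPKM is relative to the reads over all transcripts, so its values are lower. The deposited table also held DESeq2 results of the authors, namely a mean normalized signal, log2 fold changes with standard errors, a test score and p-value columns, which were not used. Versions of these tools are not given in the sources used here.

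The table held 31507 transcripts of 20701 symbols. One transcript per symbol, the one with the highest summed count, was kept, since transcripts of a gene share reads. Counts were tested in R 4.3.3 with edgeR 4.0.16 (filterByExpr, TMM scaling, quasi-likelihood test with genotype as the single term, two-sided, Benjamini-Hochberg over 14075 genes), and 95% intervals came from the same fit. Single values were compared by exact two-sided permutation tests. Alternatives were DESeq2 1.42.0, limma 3.58.1 on log2(RPKM + 1) with the deposited RPKM, and other scaling, filters and transcripts. They also included a replicate block, a covariate of Y-linked expression and leaving out each embryo. Reads carried no molecular identifiers, so depth gives counting error only. Each library is a separate embryo. Gene positions on mm9 (NCBIM37) were taken from GENCODE vM1.

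Values of every embryo are given for FGF genes past the FDR or with groups apart, for Fgf8, Fgf10, Fgf3, Fgf15, Fgfr1, Fgfr2, Spry1, Spry2, Spry4, Dusp6, Etv4 and Etv5, and for genes that the text takes up after their values were seen (Fgf1, Fgf4, Fgfr4, Egr1, Fos and Dusp5). The members and gene lists were chosen with earlier results of these data known. Marker lists were also made for pharyngeal endoderm, surface ectoderm, neural tube, neural crest, caudal mesoderm, somite, endothelium, primitive erythroid cells and yolk sac endoderm, and 0 genes of these lists passed the FDR of 0.05 in edgeR or limma, and in DESeq2 1 gene each of pharyngeal endoderm, surface ectoderm and neural crest did. Genes with an unadjusted p under 0.05 in edgeR were Hhex, Dlx3, Snai2 and Emcn.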

Additional observations from a re-analysis of the deposited data

Results flagged for a closer look

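Within genotypes, 9 of 70 groups of 4 embryos had 1 embryo far from the other 3 (Dixon's test at the 95% level, which chance alone gives in about 1 in 20 groups), and 5 of the 9 were wild-type embryo 3. That embryo was high for Fgf4 at 3.20 CPM, where the other wild-type embryos had 1.17 to 1.37 CPM, and for Fgfr1 at 219.5 CPM against 158 to 161 CPM. It was also high for Spry2 at 55.9 CPM against 30.2 to 33.8 CPM, for Spred2 at 50.1 CPM against 37.4 to 39.3 CPM, and for Etv5 at 82.9 CPM against 47.3 to 48.1 CPM.

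The other 4 lay elsewhere. Frs3 was low in wild-type embryo 1 at 2.50 CPM, with 3.92 to 4.17 CPM in the others. Fgf2 was at 0.133 CPM in wild-type embryo 2, which rests on 3 reads. In knockout embryo 1 Fgf5 was low at 0.271 CPM, from 7 reads, and Fgfrl1 was high at 27.4 CPM against 26.0 to 26.2 CPM in the other knockout embryos.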

How the results depend on the processing

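No FGF gene was called under the other scaling, filters, transcript choice, limma, the replicate block, the Y-linked covariate, the study's thresholds or with any 1 embryo left out, and DESeq2 called 1 lower, Fgf10. Over all genes, 15 higher and 122 lower calls became 4 and 72 with the replicate block, 249 and 477 with DESeq2, and 235 and 318 by the study's thresholds. Higher calls were 5 with the Y-linked covariate and 25 with limma. Leaving out 1 embryo gave 3 to 106 higher and 67 to 384 lower calls, the highest counts without wild-type embryo 3, and moved the median log2 fold change of the feedback inhibitors over -0.047 to 0.24. The cause was not tested. The replicate numbers were not taken as pairs, since deviations of same-numbered embryos correlated at 0.0863 to 0.507 across genes and not every embryo correlated best with its own number.

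Some estimates that passed no threshold changed sign. With the Y-linked covariate these were Fgf8 (-0.0026), Fgf11 (-0.014), Spry4 (0.039), Spred1 (0.0049), Dusp6 (0.044) and Etv5 (0.064), and with limma Spred3 (0.019), Etv5 (0.026) and Etv4 (0.042). Etv4 was also above 0 with DESeq2 size factors (0.0069), no filter (0.013), a CPM filter (0.0046), the replicate block (0.00085) and DESeq2 (0.0070). Leaving out 1 embryo gave log2 fold changes of Fgf8 -0.093 to 0.18, Fgf15 -0.081 to 0.21, Fgf11 -0.043 to 0.19, Fgf12 -0.38 to 0.062, Fgfr1 -0.025 to 0.15, Fgfr3 -0.056 to 0.13, Fgfr4 -0.026 to 0.50, Frs2 -0.0082 to 0.091, Spry2 -0.015 to 0.33, Spry4 -0.27 to 0.25, Spred1 -0.15 to 0.093, Spred3 -0.15 to 0.086, Dusp6 -0.14 to 0.033, Etv4 -0.079 to 0.11 and Etv5 -0.14 to 0.18.

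The fewest reads were behind Fgf2, with 0 to 3 per library, and Fgf5, with 7 to 28.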
